A study of Mus musculus with 6 samples.

Results

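The phase II conjugation enzymes of mouse liver were described here in 48 genes: 11 UDP-glucuronosyltransferase genes (*Ugt*), 16 sulfotransferase genes (*Sult*), 18 cytosolic glutathione transferase genes (*Gst* alpha, kappa, mu, omega, pi and theta) and 3 microsomal glutathione transferase genes (*Mgst*). They were chosen by symbol alone, as every gene of these families for which the array had a probe set annotated to 1 symbol, out of 19938 genes measured in that way, and each gene was read from its brightest probe set. Liver RNA was measured on 6 arrays, 1 per mouse, in 3 female Lkb1KOlivad mice (B253, B304 and B305) and 3 female control mice (B256, B267 and B302). The Lkb1KOlivad mice carry floxed alleles of *Lkb1* (gene symbol *Stk11*) and a tamoxifen-inducible Cre driven by the transthyretin promoter, which is active in hepatocytes, so that the deletion is aimed at hepatocytes of the adult and not at the other liver cells. The controls carry the same floxed alleles without Cre, on the same FVB/N background, and both genotypes had been injected with tamoxifen as adults. The paper gives the livers as fasted, while the sample labels give neither nutritional state nor age at sampling. All values below are RMA signals on the log2 scale, where a difference of 1 is a doubling, and a fold change is Lkb1KOlivad over control.

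Conjugation is the second step by which the liver disposes of drugs, hormones, bile acids and reactive by-products. Ugt enzymes sit in the endoplasmic reticulum and attach glucuronic acid from UDP-glucuronate, Sult enzymes in the cytosol attach sulfate from PAPS, and Gst enzymes attach the tripeptide glutathione. The products are water-soluble and leave through transporters into bile or blood. The genes are under the control of nuclear receptors such as CAR and PXR, of the dioxin receptor Ahr and of the oxidative stress factor Nrf2, and in mouse liver several *Sult* and *Gst* genes also differ between the sexes.

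The targeted gene set the labels against the data. The *Stk11* signal was 6.52, 6.42 and 6.48 in the Lkb1KOlivad livers and 8.24, 8.13 and 7.96 in controls. Its log2 fold change was -1.64 ± 0.12 (SE, limma adjusted p = 0.00705), and the sources used here do not place its probes relative to the floxed exons. It was the only gene of the 19938 called at an adjusted p under 0.05. All 13 measured hepatocyte markers were bright, with mean signals between 9.74 and 12.60 against a median of 5.26 over all genes. The other liver cell types are also in these bulk samples, where fewer cells of a type and less RNA per cell cannot be told apart. All 12 stellate cell markers had a log2 fold change at or below 0 (median -0.25), and the mean deviation of this list from the control average ran from -0.34 to -0.15 in Lkb1KOlivad livers and from -0.13 to 0.15 in controls. The sinusoidal endothelial list (10 of 12 negative) ran from -0.23 to -0.09 in Lkb1KOlivad livers and from -0.22 to 0.27 in controls, and the Kupffer cell list (10 of 12 negative) from -0.36 to 0.06 in Lkb1KOlivad livers and from -0.40 to 0.20 in controls. Of 7 measured biliary markers 4 were positive (median 0.04), and of 11 lymphocyte and neutrophil markers 6 were positive (median 0.06). The part of these cell types in the values below was not tested.

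None of the 48 conjugation genes was called between the genotypes, against 0.00502% of all genes. At an unadjusted p under 0.05, 2 members were higher in Lkb1KOlivad livers (4.17%, against 1.52% of all genes) and 0 were lower (1.51% of all genes). Every Lkb1KOlivad value lay above every control value for 4 members (8.33%, against 3.46% of all genes), and the reverse held for 0 members (3.7% of all genes). The 4 were *Sult3a2*, *Sult3a1*, *Gstk1* and *Sult1a1*. The members past the unadjusted threshold were *Sult3a2* and *Sult3a1*, neighbouring genes of the same family, so they may not count as separate results. The fold change was positive for 30 members and negative for 18, with a median of 0.02 beside 0.00 for all genes, and it ran from -0.71 (*Sult1e1*) to 1.09 (*Sult3a2*). The 95% interval of the fold change stayed within 2-fold in either direction for 42 members and within 1.5-fold for 32, so that for most of them a larger difference lay outside the interval.

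**Figure D1:**
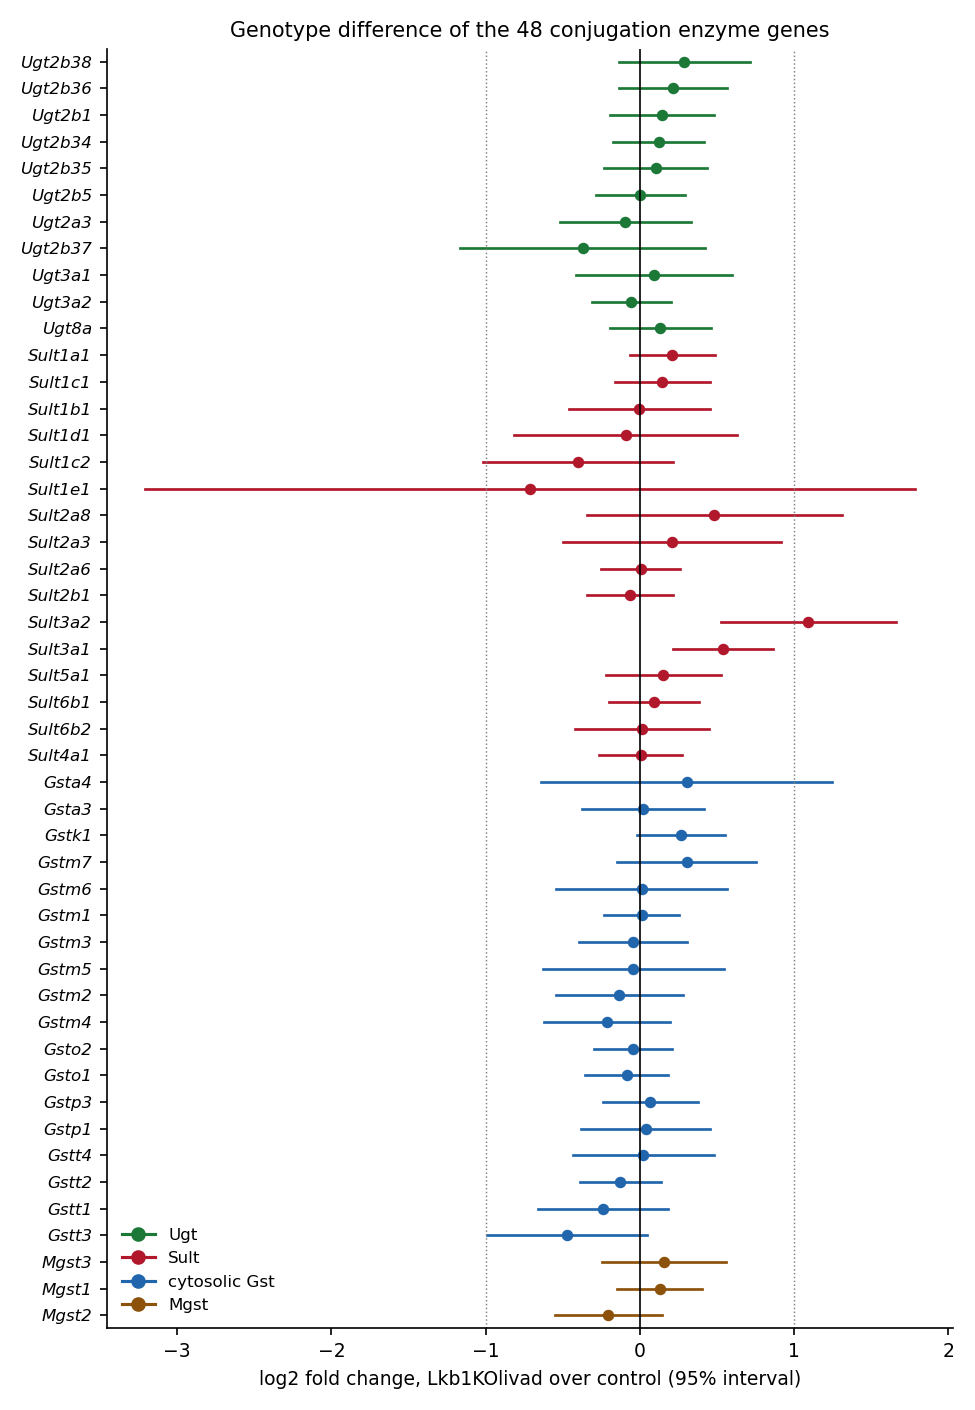
Log2 fold change (Lkb1KOlivad over control, points) with its 95% interval from limma (lines) for the 48 conjugation genes, ordered by family and coloured by enzyme class, with dotted lines at a doubling and a halving. The intervals of *Sult3a2* (0.52 to 1.66) and *Sult3a1* (0.22 to 0.86) lay above 0, all others reached 0 or crossed it, and that of *Sult1e1* was the widest (-3.21 to 1.78).

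The *Sult3a* pair and its start-site windows are shown first because these neighbouring genes had the largest positive differences of the 48. RefSeq places them next to each other on chromosome 10 with no protein-coding gene between them. The windows below run from 250 bases before to 50 bases after the start that the table gives and are printed 5′ to 3′ on the gene's own strand, from RefSeq, build GRCm38.p6. The *Sult3a2* window lies at chr10:33782066-33782365 on the minus strand and the *Sult3a1* window at chr10:33857472-33857771 on the plus strand.
Sult3a2: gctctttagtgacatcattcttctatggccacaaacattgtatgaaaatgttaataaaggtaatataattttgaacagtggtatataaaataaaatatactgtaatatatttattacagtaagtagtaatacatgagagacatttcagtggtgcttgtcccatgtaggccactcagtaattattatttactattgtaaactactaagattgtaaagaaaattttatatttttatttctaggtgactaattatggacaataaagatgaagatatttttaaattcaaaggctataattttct
Sult3a1: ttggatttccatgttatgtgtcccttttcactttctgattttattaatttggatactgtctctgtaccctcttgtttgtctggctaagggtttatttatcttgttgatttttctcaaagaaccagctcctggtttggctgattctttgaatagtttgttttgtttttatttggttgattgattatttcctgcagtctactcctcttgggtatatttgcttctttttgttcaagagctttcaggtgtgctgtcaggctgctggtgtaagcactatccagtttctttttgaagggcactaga
Both windows are rich in A and T (74.33% for *Sult3a2* and 62.67% for *Sult3a1*). They were searched on both strands for TGACNNNGC (the core of the antioxidant response element bound by Nrf2), GCGTG (the core of the xenobiotic response element bound by Ahr) and AGGTCA (the core hexamer of nuclear receptor sites), and neither holds one of them, so no letters are in capitals. These letters are found in 12.4%, 32.4% and 16.3% of the 32851 promoter windows of this table in the order named. Of the 55 windows of the 44 members in the table, 4, 11 and 10 held them (7.27%, 20.0% and 18.2%). The last 50 bases of the *Sult3a2* window begin with atg, so its given start may be a start codon and not a transcription start. The window may then not hold the promoter, and the lack of a match in it cannot be read as a trait of the promoter.

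*Sult3a2*, a sulfotransferase of the SULT3 family, had signals of 10.51, 10.22 and 10.46 in Lkb1KOlivad livers and 9.92, 9.17 and 8.83 in controls. The mutant values lay close together (10.40 ± 0.15, SD, n = 3), the control values were spread (9.31 ± 0.56, SD, n = 3), and the groups did not overlap. The difference was 2.13-fold (95% interval 1.44 to 3.16), with an unadjusted p of 0.00196 and an adjusted p of 0.9997 over all genes in limma. *Sult3a1*, an amine N-sulfotransferase known for its female-predominant expression in mouse liver, had signals of 11.29, 11.28 and 11.43 in Lkb1KOlivad livers and 11.05, 10.72 and 10.60 in controls. The order of the mice was alike, with control B256 nearest to the mutants and control B302 lowest in both genes. Whether probes of one of these genes also bind the RNA of the other was not tested. The difference of *Sult3a1* was 1.46-fold (95% interval 1.16 to 1.82), with an unadjusted p of 0.00442 and an adjusted p of 0.9997 in limma. The exact two-sided permutation test gave 0.1 for each gene, the smallest value that 3 mice against 3 can give. Without control B256 the log2 fold change of *Sult3a2* was 1.40 (adjusted p = 0.190), and without control B302 it was 0.85 (adjusted p = 0.9994).

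The mouse numbers fall into a two-hundred series (Lkb1KOlivad B253 with controls B256 and B267) and a three-hundred series (Lkb1KOlivad B304 and B305 with control B302), and what the series stand for is not given. Within these series the *Sult3a2* difference was 0.96 and 1.52, and that of *Sult3a1* was 0.41 and 0.75, so both genes ran the same way in each. Of the 48 members, 21 had the same sign in both series and 27 had opposite signs.

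Members of the family Sult1 act on phenols, catecholamines, thyroid hormones and estrogens. *Sult1a1*, the main phenol sulfotransferase of liver, had signals of 10.78, 10.58 and 10.51 in Lkb1KOlivad livers and 10.34, 10.48 and 10.41 in controls. The groups did not overlap, although the lowest mutant (B305) and the highest control (B267) were almost level, and the difference was 1.16-fold (95% interval 0.96 to 1.40, unadjusted p = 0.113 in limma, exact permutation p = 0.1). *Sult1b1*, which sulfates thyroid hormones, had a log2 fold change of 0.00 ± 0.20 (SE). *Sult1c2* had signals of 4.51, 4.30 and 4.12 in Lkb1KOlivad livers and 4.13, 5.34 and 4.65 in controls, where B267 stood above the other 5 mice.

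**Figure D2:**
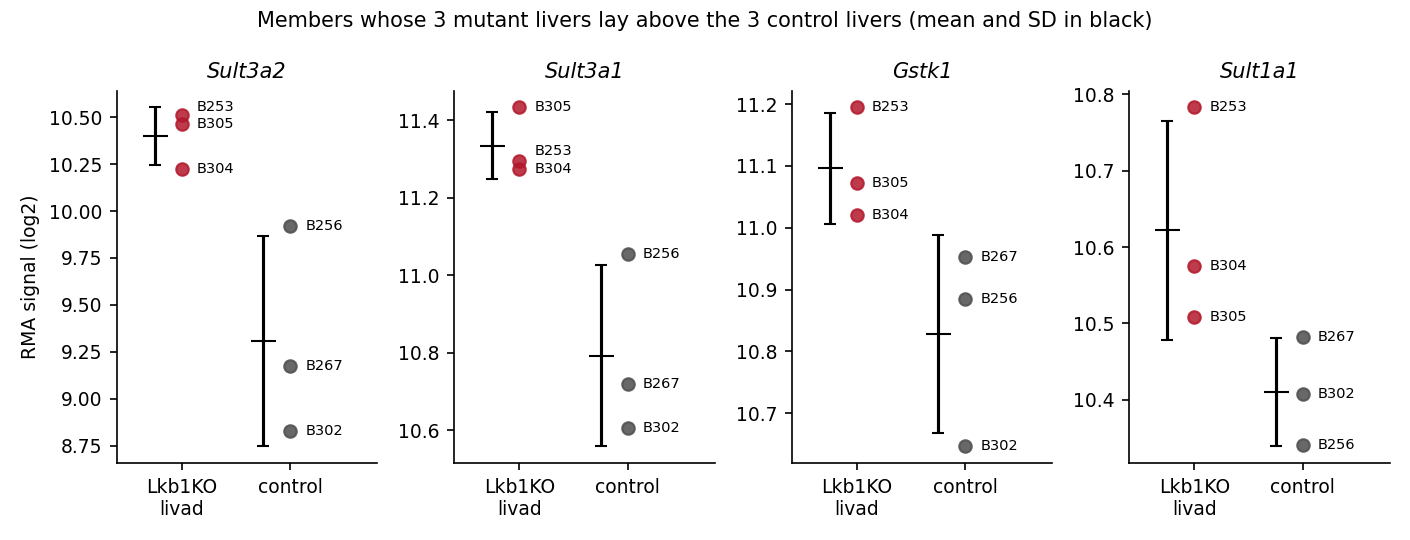
RMA signal (log2) of *Sult3a2*, *Sult3a1*, *Gstk1* and *Sult1a1* in each mouse, with Lkb1KOlivad on the left and control on the right of each panel, points for mice and black marks for the mean and SD (n = 3). The panels have their own axes, and all 3 mutants lay above all 3 controls in each, by the widest margin in *Sult3a2* and by the narrowest in *Sult1a1*.

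*Sult1e1*, the estrogen sulfotransferase, varied most between mice of all members. Its signal was 4.02, 6.47 and 7.20 in Lkb1KOlivad livers and 8.46, 4.14 and 7.23 in controls, a range of 4.44, or 21.7-fold, over the 6 livers. Mutant B253 and control B267 were low and the other 4 were 5.04-fold or more above them, so the spread ran across the genotypes and the difference between these (-0.71 ± 1.10, SE) was smaller than the error. *Sult1d1*, a catecholamine sulfotransferase and its neighbour on chromosome 5, had the same pair of mice at the bottom: 10.40, 11.43 and 11.46 in Lkb1KOlivad livers and 11.63, 10.70 and 11.23 in controls. Control B256 was the highest mouse in both genes. *Cyp2b10*, the classical CAR target, which was looked up after these values had been seen, was also lowest in B253 and B267, with 9.06, 10.61 and 10.49 in Lkb1KOlivad livers and 11.47, 8.12 and 10.34 in controls. Its list was not uniform: of 12 measured CAR and PXR targets, 2 had this pair at the bottom (*Cyp2b10* and *Gadd45b*) and 4 had it at the top (*Cyp2b9*, *Cyp2b13*, *Aldh1a1* and *Aldh1a7*). Over all genes, 7.59% had this pair below the other 4 mice, and 4 of the 48 members did. These members include *Sult1e1* and *Sult1d1*, in which the pair was first seen.

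The promoter windows of these neighbours are given for comparison with the *Sult3a* pair, with motif matches in capitals. *Sult1e1* lies at chr5:87591562-87591861 and *Sult1d1* at chr5:87568957-87569256, both on the minus strand.
Sult1e1: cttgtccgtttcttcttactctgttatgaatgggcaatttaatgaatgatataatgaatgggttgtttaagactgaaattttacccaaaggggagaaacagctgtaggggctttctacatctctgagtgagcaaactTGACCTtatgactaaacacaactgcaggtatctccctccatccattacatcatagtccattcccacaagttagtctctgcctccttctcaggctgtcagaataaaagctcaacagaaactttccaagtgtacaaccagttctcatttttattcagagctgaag
Sult1d1: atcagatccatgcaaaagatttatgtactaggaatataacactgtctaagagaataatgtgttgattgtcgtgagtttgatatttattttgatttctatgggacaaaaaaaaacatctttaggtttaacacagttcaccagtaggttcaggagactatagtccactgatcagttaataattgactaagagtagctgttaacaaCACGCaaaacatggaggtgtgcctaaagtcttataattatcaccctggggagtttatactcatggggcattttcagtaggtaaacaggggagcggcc
The capitals mark an AGGTCA hexamer read on the opposite strand (TGACCT, starting at position -113 from the start) in *Sult1e1* and a GCGTG core read on the opposite strand (CACGC, at -47) in *Sult1d1*. The 2 windows share no match to the same motif.

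The hydroxysteroid sulfotransferases of the family Sult2 act on steroids and bile acids. *Sult2a8*, which sulfates bile acids in mouse liver, had signals of 8.37, 8.15 and 7.78 in Lkb1KOlivad livers and 6.93, 8.55 and 7.37 in controls. *Sult2a3* on the same chromosome had 5.38, 5.21 and 5.05 in Lkb1KOlivad livers and 4.57, 5.84 and 4.59 in controls. In both genes the 3 mutants lay between control B267, which was the highest mouse, and the controls B256 and B302, which were the lowest, so the result turned on 1 control. Without B267 the log2 fold change was 0.95 (unadjusted p = 0.00198, adjusted p = 0.956) for *Sult2a8* and 0.63 (unadjusted p = 0.00258, adjusted p = 0.991) for *Sult2a3* in limma, beside 0.48 and 0.21 with all mice. B253 and B267, the lowest pair in *Sult1e1*, were the highest pair in both of these genes. This was seen in 8 of the 48 members, these genes included, and in 5.89% of all genes. As the pair was picked after the values of members had been seen, the count is only descriptive. *Sult2a1* and *Sult2a2* share a probe set, so they are not among the 48, and its mean signal was 9.88 ± 0.35 in Lkb1KOlivad livers and 9.50 ± 0.38 in controls (SD, n = 3) with overlap. The cholesterol sulfotransferase gene *Sult2b1* (-0.06 ± 0.12, SE) and *Sult4a1*, known from brain (0.01 ± 0.12, SE), had signals below the median of all genes.

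**Figure D3:**
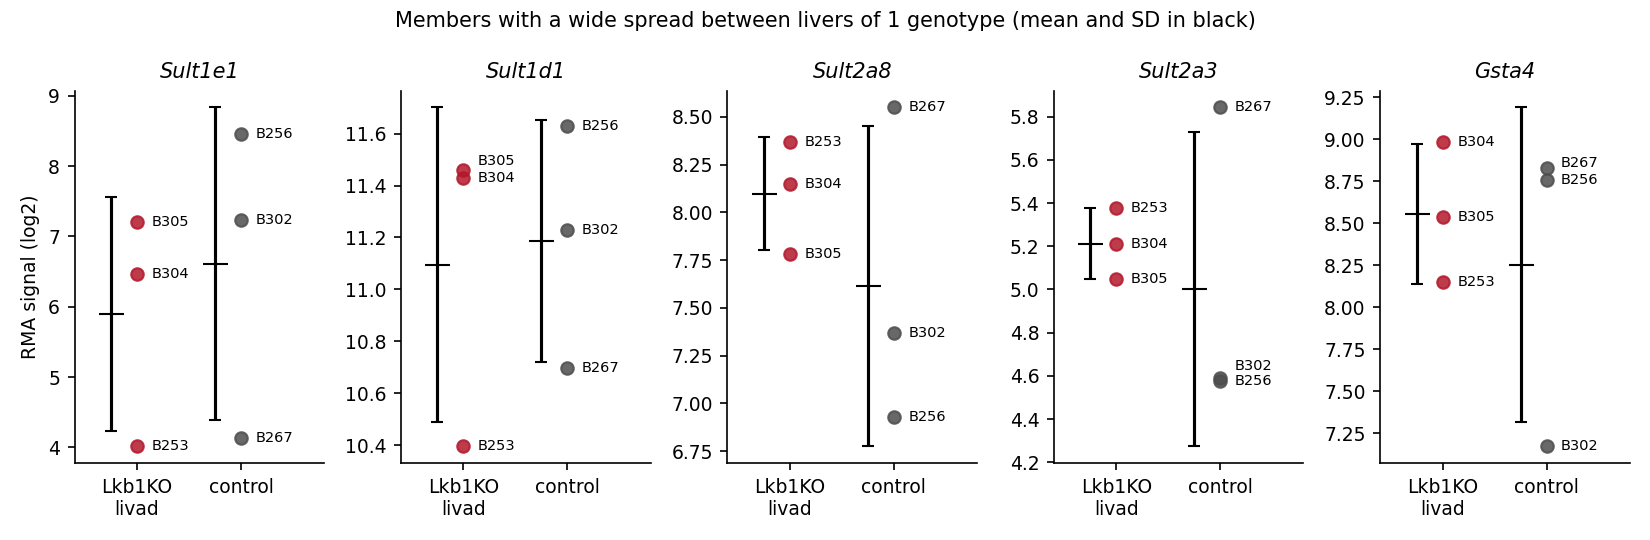
RMA signal (log2) of *Sult1e1*, *Sult1d1*, *Sult2a8*, *Sult2a3* and *Gsta4* in each mouse, with Lkb1KOlivad on the left and control on the right of each panel, points for mice and black marks for the mean and SD (n = 3). Mutant B253 and control B267 lay at the bottom for *Sult1e1* and *Sult1d1* and at the top for *Sult2a8* and *Sult2a3*, and control B302 stood below the other 5 mice for *Gsta4*.

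The Ugt2 genes form a row on chromosome 5, next to the *Sult1b1*, *Sult1d1* and *Sult1e1* genes, and encode enzymes for steroids, bile acids and drugs. The median range over the 6 livers was 0.54 for the 8 measured members. *Ugt2b36* had signals of 10.08, 10.06 and 9.96 in Lkb1KOlivad livers and 9.72, 10.15 and 9.60 in controls (log2 fold change 0.21 ± 0.15, SE), with only control B267 above the mutants. *Ugt2b5* had 9.54, 9.67 and 9.56 in Lkb1KOlivad livers and 9.53, 9.78 and 9.45 in controls, a fold change of 1.002 (95% interval 0.82 to 1.22). *Ugt2b34* (0.12 ± 0.13, SE) and *Ugt2a3* (-0.09 ± 0.19, SE) also overlapped. In *Ugt2b37* mutant B304 had 5.49 while the other 5 livers lay between 6.67 and 7.07. Of the 8 members of this family, 6 had a positive fold change, and the median was 0.11 (range -0.37 to 0.29). The Ugt2b genes are close in sequence, so probes of one may also bind the RNA of another. AGGTCA is found in the start-site windows of 5 of the 8 genes, beside 16.3% of all promoter windows. It starts at -25 in *Ugt2b36* and *Ugt2b38*, at -22 in *Ugt2b5*, at -39 in *Ugt2b37* and at -215 in *Ugt2b35*. The windows of *Ugt2b34*, *Ugt2b1* and *Ugt2a3* hold no match. As the Ugt2b genes are close in sequence, these matches are not independent of each other.

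*Ugt3a1* and *Ugt3a2*, whose human counterparts use other sugars than glucuronic acid, lie side by side on chromosome 15. *Ugt3a2* had signals of 10.24, 10.20 and 10.32 in Lkb1KOlivad livers and 10.20, 10.39 and 10.33 in controls, a range of 0.19 over the 6 livers. *Ugt3a1* had 9.08, 8.50 and 8.36 in Lkb1KOlivad livers and 8.89, 8.52 and 8.24 in controls, and the groups overlapped in both. *Ugt8a*, which makes the galactolipids of myelin, had signals of 3.84, 3.89 and 4.06 in Lkb1KOlivad livers and 3.56, 3.81 and 4.02 in controls, below the median of all genes. The Ugt1a isoforms, which include the bilirubin-conjugating enzyme Ugt1a1, share their last exons and a single probe set with 8 symbols, whose mean signal was 9.82 ± 0.17 in Lkb1KOlivad livers and 9.96 ± 0.27 in controls (SD, n = 3) with overlap.

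Among the glutathione transferases, *Gstk1*, the kappa-class enzyme of mitochondria and peroxisomes, had signals of 11.19, 11.02 and 11.07 in Lkb1KOlivad livers and 10.89, 10.95 and 10.65 in controls. The groups did not overlap and the difference was 1.20-fold (95% interval 0.99 to 1.47, unadjusted p = 0.0629 in limma, exact permutation p = 0.1). Its difference within the number series was 0.28 and 0.40. The mu, pi and alpha genes with the strongest signals had differences smaller than their error. *Gstm1* had 11.12, 11.23 and 11.11 in Lkb1KOlivad livers and 11.19, 11.10 and 11.13 in controls, a fold change of 1.01 with a 95% interval of 0.85 to 1.20. *Gstp1* (0.04 ± 0.18, SE), *Gstp3* (0.07 ± 0.14, SE) and *Gsta3* (0.02 ± 0.18, SE) overlapped as well. *Gsta4*, which conjugates the lipid peroxidation product 4-hydroxynonenal, had 8.15, 8.98 and 8.54 in Lkb1KOlivad livers and 8.76, 8.83 and 7.17 in controls, where control B302 stood below the other 5 mice. Without B302 its log2 fold change was -0.24, beside 0.30 with all mice.

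The theta-class genes, 4 neighbours on chromosome 10, had 3 negative and 1 positive fold change with a median of -0.18. *Gstt3* had signals of 7.19, 7.57 and 7.92 in Lkb1KOlivad livers and 8.41, 7.67 and 8.01 in controls, and its log2 fold change of -0.47 ± 0.23 (SE, unadjusted p = 0.0702, adjusted p = 0.9997 in limma) was the largest negative one after *Sult1e1*. Mutant B305 lay above control B267, so the groups overlapped. Of the 7 mu-class genes, also neighbours in a row on chromosome 3, 3 were positive and 4 negative. *Gstm3* had a second, dimmer probe set with a difference of -0.17, beside -0.04 for the one used. The mu-class genes, like the pi-class pair, are close in sequence and may share probe signal. The omega genes *Gsto1* (-0.09 ± 0.12, SE) and *Gsto2* (-0.05 ± 0.11, SE) overlapped between the genotypes. The microsomal enzyme *Mgst1* had 11.70, 11.52 and 11.43 in Lkb1KOlivad livers and 11.50, 11.45 and 11.32 in controls (0.13 ± 0.12, SE), with overlap. *Mgst2*, known for leukotriene C4 synthesis (-0.20 ± 0.15, SE), and *Mgst3* (0.16 ± 0.18, SE) overlapped too.

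**Figure D4:**
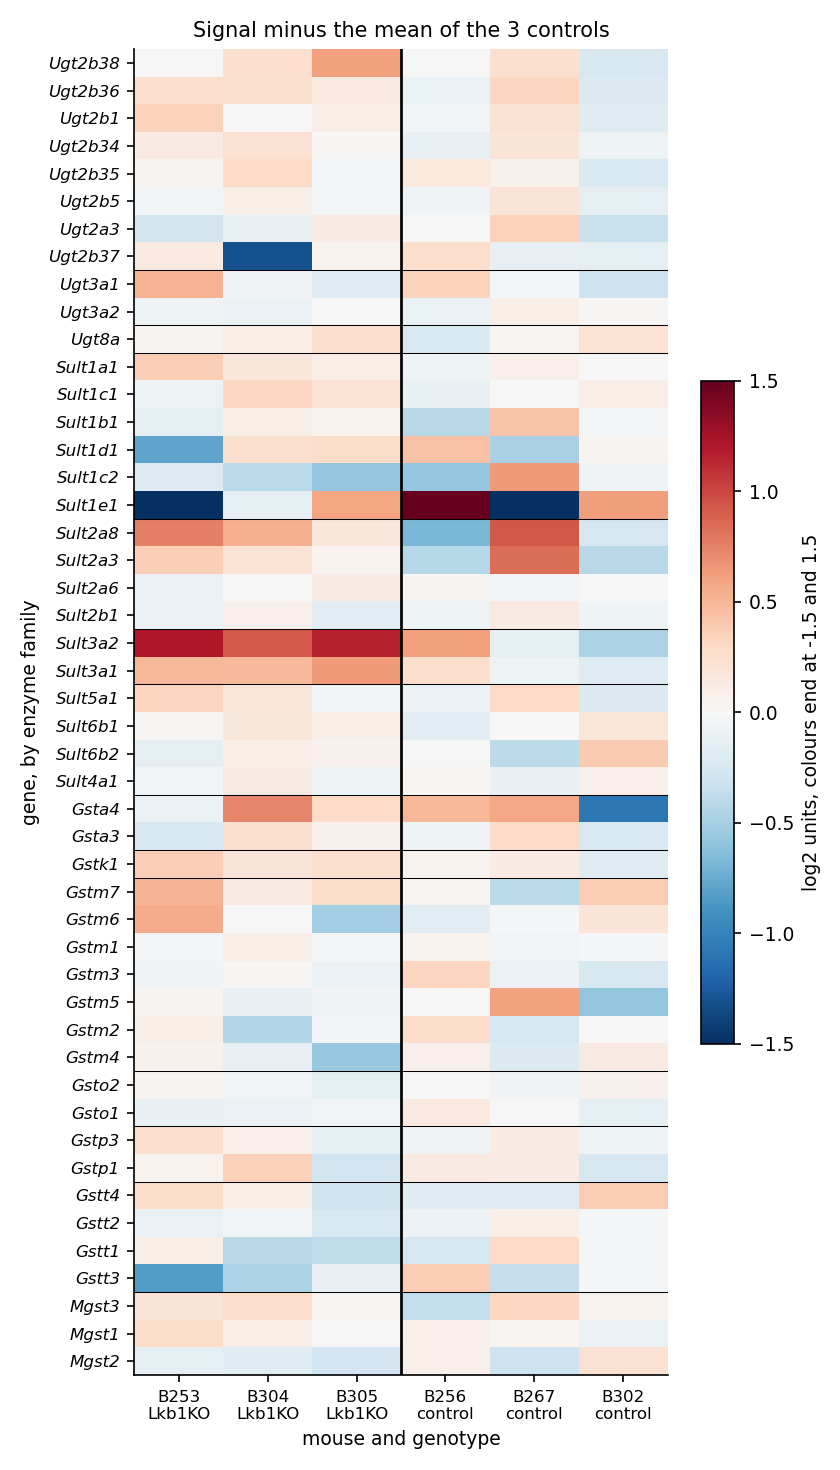
Signal of each of the 48 genes per mouse after subtracting the control mean (colour, log2 units, with colours ending at -1.5 and 1.5), with genes in rows by family and the 3 Lkb1KOlivad mice to the left of the 3 controls. The *Sult3a* pair is red in all 3 mutants and in control B256, *Sult1e1* is dark blue in mutant B253 and control B267, and most other rows hold values near 0.

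Single mice stood out across the families. Control B302 was the lowest of the 6 mice in 16 of the 48 members and control B267 the highest in 14. The mean deviation of all members from the control average was 0.03, 0.06 and 0.03 in Lkb1KOlivad livers and 0.03, 0.04 and -0.07 in controls, so all 3 mutants and 2 controls were nearly level. The range over the 6 livers exceeded 1 for 11 members, and its median was 0.60 for the members and 0.45 for all genes. Without control B267, 6 members were higher in Lkb1KOlivad livers at an unadjusted p under 0.05 (*Sult3a2*, *Sult3a1*, *Sult2a8*, *Sult2a3*, *Ugt2b36* and *Gstk1*) and 3 were lower (*Sult1e1*, *Gstt3* and *Mgst2*), with 0 called after adjustment, and in that fit 2.02% of all genes were higher and 1.76% lower. With other mice left out, *Ugt2b38* joined the higher members without mutant B253 and *Gstm7* without control B302, while *Sult1c2* was lower without control B256 and *Gstt3* without mutant B305.

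Lists of genes around the co-substrates came next, and 0 of their genes were called. Not all of these genes make or carry a co-substrate, as the first list also holds *Gusb* and *Ugcg*. Over all genes, 3.46% lay above and 3.7% below the controls without overlap. For UDP-glucuronate, 6 of 6 listed genes overlapped between the genotypes with a median of 0.07, among them *Ugdh*, the enzyme that makes it, with 8.38, 8.08 and 7.97 in Lkb1KOlivad livers and 8.30, 7.92 and 7.84 in controls. For PAPS and sulfate, 4 of 10 measured genes were positive with a median of -0.08, and 1 was lower at an unadjusted p under 0.05, *Slc35b3*, a PAPS transporter of the Golgi (-0.32 ± 0.14, SE, adjusted p = 0.9997). *Papss2*, the main PAPS synthase of liver, had 9.998, 10.02 and 10.02 in Lkb1KOlivad livers and 10.01, 9.97 and 9.56 in controls. For glutathione, 10 of 17 genes were positive with a median of 0.02. Of these 17, 2 lay below the controls without overlap and 0 above. They were *Chac1* and *Glrx2* (-0.11 ± 0.11, SE). *Gclc*, the catalytic subunit of the rate-limiting enzyme, had 9.42, 9.42 and 9.23 in Lkb1KOlivad livers and 9.76, 9.44 and 8.82 in controls. *Chac1*, which degrades glutathione, had 5.95, 6.11 and 6.14 in Lkb1KOlivad livers and 6.79, 6.53 and 6.93 in controls, without overlap (-0.69 ± 0.14, SE, unadjusted p = 0.00079, adjusted p = 0.9997 in limma).

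Of 16 conjugate transporters, 10 were positive with a median of 0.01. Without overlap, 1 lay above and 1 below the controls, beside 3.46% and 3.7% of all genes. *Abcc6* (0.30 ± 0.12, SE) lay above and *Abcb1a* (-0.59 ± 0.16, SE), a drug efflux pump of the canalicular membrane, below the controls without overlap, with 5.998, 6.13 and 5.80 in Lkb1KOlivad livers and 6.65, 6.77 and 6.26 in controls for *Abcb1a*. Both had an adjusted p of 0.9997. A list of 10 further genes held other glutathione transferases and genes grouped with them, not all of which are such enzymes. In it *Ltc4s* and *Clic4* were higher at an unadjusted p under 0.05 in limma (0.31 each, adjusted p = 0.9997), beside 1.52% of all genes. Of 18 other conjugation enzymes 0 passed that threshold in either direction, with 13 positive.

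Of 26 listed regulators of conjugation genes, 23 were measured, 13 with a positive fold change, and the median was 0.05. Without overlap, 2 lay above and 1 below the controls, beside 3.46% and 3.7% of all genes. At an unadjusted p under 0.05 in limma, 3 were higher and 0 lower, beside 1.52% and 1.51% of all genes. The gene below the controls was *Foxa2* (-0.24 ± 0.11, SE). *Nfe2l2*, which encodes Nrf2, had 8.92, 9.06 and 8.84 in Lkb1KOlivad livers and 8.004, 8.55 and 8.10 in controls without overlap (0.72 ± 0.16, SE, adjusted p = 0.9997). The 15 measured Nrf2 target genes had a median of 0.02 and 0 passed an unadjusted p under 0.05 in either direction. *Esr1*, the estrogen receptor, had 7.04, 7.06 and 6.78 in Lkb1KOlivad livers and 6.04, 5.91 and 6.04 in controls without overlap (0.96 ± 0.12, SE, adjusted p = 0.332). *Bcl6*, a repressor with male-predominant expression in mouse liver, had 7.58, 8.12 and 6.08 in Lkb1KOlivad livers and 5.79, 6.52 and 5.82 in controls, with overlap through mutant B305. *Nr1i2* (PXR, 0.30 ± 0.16, SE), *Nr1i3* (CAR, -0.10 ± 0.15, SE), *Ahr* (0.05 ± 0.23, SE) and *Hnf4a* (0.02 ± 0.19, SE) overlapped.

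Of 12 CAR and PXR targets, 7 were positive with a median of 0.07. *Cyp3a13* lay above the controls (0.76 ± 0.22, SE) and *Alas1*, the rate-limiting enzyme of heme synthesis, below them, with 8.86, 9.64 and 9.61 in Lkb1KOlivad livers and 10.29, 10.31 and 10.26 in controls (-0.92 ± 0.20, SE), both with an adjusted p of 0.9997. *Cyp2c55*, a dim gene, also lay below the controls (-0.26 ± 0.11, SE). Over all genes, 3.46% lay above and 3.7% below in this way. Of 7 Ahr targets, 6 were negative with a median of -0.07, and *Cyp1a2* had 8.93, 8.41 and 8.51 in Lkb1KOlivad livers and 9.02, 9.14 and 8.87 in controls (-0.39 ± 0.16, SE). Since *Sult3a1* is a female-predominant gene, other genes of this kind were set beside it. Of 14 measured female-predominant liver genes, 9 were positive with a median of 0.17. Of these 14, 1 lay above the controls without overlap, beside 3.46% of all genes. It was *Cyp17a1*, with 9.98, 10.03 and 10.20 in Lkb1KOlivad livers and 9.76, 8.63 and 9.56 in controls (0.76 ± 0.26, SE, adjusted p = 0.9997). Of 16 male-predominant genes, 9 were positive with a median of 0.10. Of these 16, 1 lay below the controls without overlap, *Susd4* (-0.11 ± 0.12, SE), beside 3.7% of all genes. In the same list 1 gene, *Bcl6*, was higher at an unadjusted p under 0.05 in limma, beside 1.52% of all genes.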

How the data were processed

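Liver RNA of 6 mice was hybridized to Affymetrix mouse gene arrays. The deposited values are log2 signals which, per the labels, the authors made with RMA (background correction, normalization across arrays and a summary per probe set). Because RMA sets the probe signals of all arrays to a common distribution, a shift shared by all genes cannot be seen. The summarized values can still differ in distribution between arrays. The labels name RMA and Partek, and the methods Expression Console and BRB-ArrayTools. No version of these is stated in the sources read. Scanner files and detection calls were not used here, and no genome build was given with the values.

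Of 35556 probe sets, 21789 had 1 symbol in an annotation of an earlier array generation than the methods name, 1621 had several and 12146 had none. For 21698 of the probe sets with 1 symbol the symbol was read from RefSeq by gene identifier, which changed 0 symbols of the members. Of 999 genes with several probe sets the brightest was used, which gave 19938 genes with no filter on low values. Array medians lay between 5.03 and 5.08, and precision is limited by the small number of arrays.

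Groups came from the labels. They were compared with limma 3.58.1 in R 4.3.3 (lmFit and eBayes, two-sided, no covariate, Benjamini-Hochberg over all genes, threshold 0.05), checked on data with known changes, and with exact permutation tests of 3 against 3 mice. The limma p-values set each difference against the spread between mice, with each gene's variance drawn toward that of the other genes. The methods' t-test, which uses only a gene's own spread, gave an unadjusted p of 0.031 for *Sult3a2* and 0.0197 for *Sult3a1*. Members and gene lists were chosen with earlier results of these data known. Named were *Stk11*, members without overlap or with an unadjusted p under 0.05, the 4 brightest of each group (Ugt1, Ugt2, Ugt3 and Ugt8, Sult, cytosolic Gst, Mgst), the 5 with the widest control range, the 2 largest differences in each direction, and up to 4 genes per list at an unadjusted p under 0.05. Genes named beyond this rule were chosen after their values were seen. Promoter windows (250 bases before and 50 after the start, build GRCm38.p6) came from RefSeq, where 44 of 48 members matched.

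The 14 alternatives were quantile normalization, median centring, dropping dim genes, averaging a gene's probe sets, limma's trend and robust options, weights per array, the methods' t-test, a block for the series of mouse numbers, and dropping each mouse once. Figures were drawn with matplotlib 3.10.9.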

Additional observations from a re-analysis of the deposited data

How the results depend on the processing

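None of the 48 members was called at an adjusted p under 0.05 in any of the 14 alternatives. Of 346 values of the 25 named members, 317 kept their direction and 29, in 12 members, changed it. *Sult3a2* ran from 0.85 to 1.40 (adjusted p 0.190 to 1.0) and *Sult3a1* from 0.45 to 0.67 (0.772 to 1.0), both at an unadjusted p under 0.05 in all 14. *Stk11* missed the threshold under the methods' t-test (-1.64, adjusted p = 0.566) and with 5 of the 6 mice left out in turn (adjusted p 0.0501 to 0.139). It stayed past it without control B302 (adjusted p = 0.0168), and over the 6 fits it ran from -1.71 to -1.57. Leaving out 1 mouse gave 2 to 6 members higher (all genes 0.998% to 2.61%) and 0 to 3 lower (all genes 0.948% to 2.23%) at an unadjusted p under 0.05, and a median from -0.00245 to 0.0938, with the upper ends of the member counts and median without control B267. With a block for the series of mouse numbers, 1 member (*Gstt3*) was lower and 3 were higher, beside 2.07% and 2.95% of all genes, which were 1.51% and 1.52% with no block. No paired analysis was possible because the mouse numbers are not shared between the genotypes. Signs changed under quantile normalization for *Gsta3* (-0.0513), *Gstm1* (-0.0690), *Gstp1* (-0.0147) and *Ugt2b5* (-0.0375), and with array weights for *Gsta3* (-0.00995), *Gstp1* (-0.0239), *Ugt2b5* (-0.0298) and *Sult1d1* (0.0299). Quantile normalization also lowered other bright members, among them *Sult3a1* (0.46, beside 0.54), *Sult1a1* (0.16, beside 0.21) and *Ugt3a2* (-0.12, beside -0.06). The cause was not tested. Leaving out 1 mouse, *Gsta3* ran from -0.0941 to 0.166, *Gsta4* from -0.24 to 0.59, *Gstm1* from -0.0275 to 0.0378, *Gstp1* from -0.12 to 0.20, *Gstp3* from -0.0283 to 0.169, *Mgst3* from -0.0246 to 0.315, *Sult1d1* from -0.33 to 0.26, *Sult1e1* from -1.95 to 0.23, *Sult2a3* from -0.00367 to 0.63, *Ugt2a3* from -0.26 to 0.0779, *Ugt2b5* from -0.0670 to 0.102 and *Ugt3a1* from -0.12 to 0.27. Background signal per probe is not in the values used here, so levels of dim members such as *Sult2a6* and *Sult6b1* may be background.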
